A study of Mus musculus with 48 samples.

Results

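The genes described here are 9 genes of antigen presentation by MHC class II molecules and of dendritic cells: H2-Aa, H2-Ab1, H2-Eb1, H2-DMa, Cd74, Ciita, Ccr7, Flt3 and Cd209a. They were taken as a list of symbols, and every probe set annotated to one of them was used, which gave 13 probe sets for the 9 of 12393 genes measured. H2-Ab1 had 3 probe sets, H2-Aa and Ciita had 2 each, and the other genes had 1 each. In outline, 5 of the 6 class II genes (all but Ciita, by a narrow margin) and Ccr7 had lower RNA in the lungs of obese mice that breathed clean air, and the 6 class II genes, Ccr7 and Flt3 were higher in obese mice that breathed mainstream cigarette smoke. In regular weight mice the same smoke gave 1 higher gene (Cd74) and 1 lower gene (Cd209a). That count depended on the fit: with only the groups compared, 5 of the 9 genes were called, and 2211 of the 12393. In the main fit, 8.28% of all genes were called for obesity in air. Mainstream smoke had 21.4% of all genes called in obese and 14.7% in regular weight mice.

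MHC class II molecules are surface proteins made of an alpha and a beta chain that show peptides from engulfed material to CD4 T cells. H2-Aa and H2-Ab1 encode both chains of the I-A molecule, and H2-Eb1 encodes the beta chain of I-E. Cd74 encodes the invariant chain, which fills the groove of a newly made molecule, and H2-DMa encodes a chain of the DM complex, which helps to exchange the last piece of that chain for a peptide. Ciita is the transcriptional coactivator that turns the class II genes on, and interferon gamma is a known inducer of it. In lung, dendritic cells, B cells, some macrophages and alveolar type 2 cells carry class II molecules. Ccr7 is the chemokine receptor that guides maturing dendritic cells and lymphocytes to lymph nodes, Flt3 is the receptor of a growth factor for dendritic cell precursors, and Cd209a is a C-type lectin of monocyte-derived dendritic cells.

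RNA of whole lungs was measured in 48 male C57BL/6 mice, 8 in each of 6 groups, with 1 Affymetrix array per animal. Regular weight (RW) mice ate a chow with about 5 kcal% fat, and diet-induced obese (DIO) mice ate one with 60 kcal% fat from 6 weeks of age, for 9 weeks before the exposures. Mice were bought at 13 weeks and were 15 weeks old when exposures began. They breathed filtered air (sham control, SC), mainstream smoke (MS, the smoke drawn through a cigarette) or sidestream smoke (SS, the smoke from its burning tip) through the nose for 5 h a day. There were 8 exposures in 2 weeks, in blocks of 5 and 3 days with 2 days of rest between them, and lungs were taken the day after the last. All groups shared the strain, the sex and the nose-only handling, so diet here stands for both the feed and the body weight. The labels also mention an LPS study when they give the time on the diet, and whether any animal had a further treatment is not settled by them. Arrays are named by diet, exposure and animal, as in RW-SC-1. In the regular weight smoke groups the arrays titled 7 and 8 carry the source numbers 5 and 6 again, and each was counted as an animal of its own.

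The promoters of H2-Aa and H2-Eb1 are shown because these chains rose and fell together in the results below and carry the control sequence that class II genes are known for. RefSeq windows of assembly GRCm38.p6 were matched for 5 of the 9 genes (H2-Aa, H2-Eb1, H2-DMa, Flt3 and Cd209a). The 250 bases before the start of transcription lie at chr17:34287824-34288073 on the minus strand for H2-Aa and at chr17:34305617-34305866 on the plus strand for H2-Eb1. Capitals mark the core of the X box, GCAACT, and the Y box, CTGATTGG, which holds the CCAAT motif read on the other strand.
H2-Aa: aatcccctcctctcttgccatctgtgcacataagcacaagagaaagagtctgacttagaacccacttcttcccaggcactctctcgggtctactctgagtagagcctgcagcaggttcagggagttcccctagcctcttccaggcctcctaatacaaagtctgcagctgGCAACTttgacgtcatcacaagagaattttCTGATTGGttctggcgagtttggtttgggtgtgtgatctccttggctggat
H2-Eb1: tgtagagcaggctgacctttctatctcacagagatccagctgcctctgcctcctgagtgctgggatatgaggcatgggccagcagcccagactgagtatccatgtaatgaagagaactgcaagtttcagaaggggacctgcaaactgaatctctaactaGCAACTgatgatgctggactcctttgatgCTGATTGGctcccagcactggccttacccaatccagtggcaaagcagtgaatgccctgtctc
The Y box began 51 bases before the start in H2-Aa and 62 bases before it in H2-Eb1, and the X core began 30 and 29 bases before the Y box. Both strands of every window were searched for both words, which do not overlap. The Y box was in 3.83% of 32851 windows of this length and the X core in 9.01%. An X core that began 20 to 50 bases before a Y box on the same strand was in 9 windows, or 0.0274%. Those 9 include H2-Aa and H2-Eb1 themselves and the class II gene H2-Eb2, and the rest belong to genes such as Aldh4a1, Gstz1 and Narf. The words were chosen after the sequences were seen, and the range of spacings holds the 30 and 29 bases found in them. These shares are therefore a description and no test. Neither word was found in the windows of H2-DMa and Cd209a, and that of Flt3 held the X core alone.

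The values are log2 signals of the deposited table, so a difference of 1 is a doubling. A difference was called where its adjusted p, from limma over 12393 genes with Benjamini-Hochberg adjustment, was below 0.05. Standard errors (SE) are those of the fit, in which all 48 arrays share the spread. The lung label was borne out by 7 genes of lung epithelium, whose mean log2 signal lay between 12.92 and 13.55 on the 48 arrays. A set of 5 arrays with high levels of genes of other tissues or of chemokine genes stood apart and was left out as an alternative. In this set, DIO-SC-7 had a mean log2 signal of 10.72 for thymocyte genes, against at most 5.61 in the other 5 groups. DIO-SC-3 had 13.38 for genes of skeletal muscle and squamous epithelium, against at most 6.49 in the other groups. RW-SS-6 and DIO-SC-7 had 10.74 and 10.55 for fat genes, against at most 6.92 in the 4 groups without them. DIO-MS-1 and DIO-MS-6 had the highest signals of the chemokine gene Cxcl9, 12.08 and 11.82, against at most 9.72 on any other array. They were not the only arrays with high interferon-induced genes: RW-SS-8, which was kept, had the highest Gbp2 (12.48) and Igtp (12.55) of all arrays, above DIO-MS-1 (12.20 and 11.91).

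**Figure D1:**
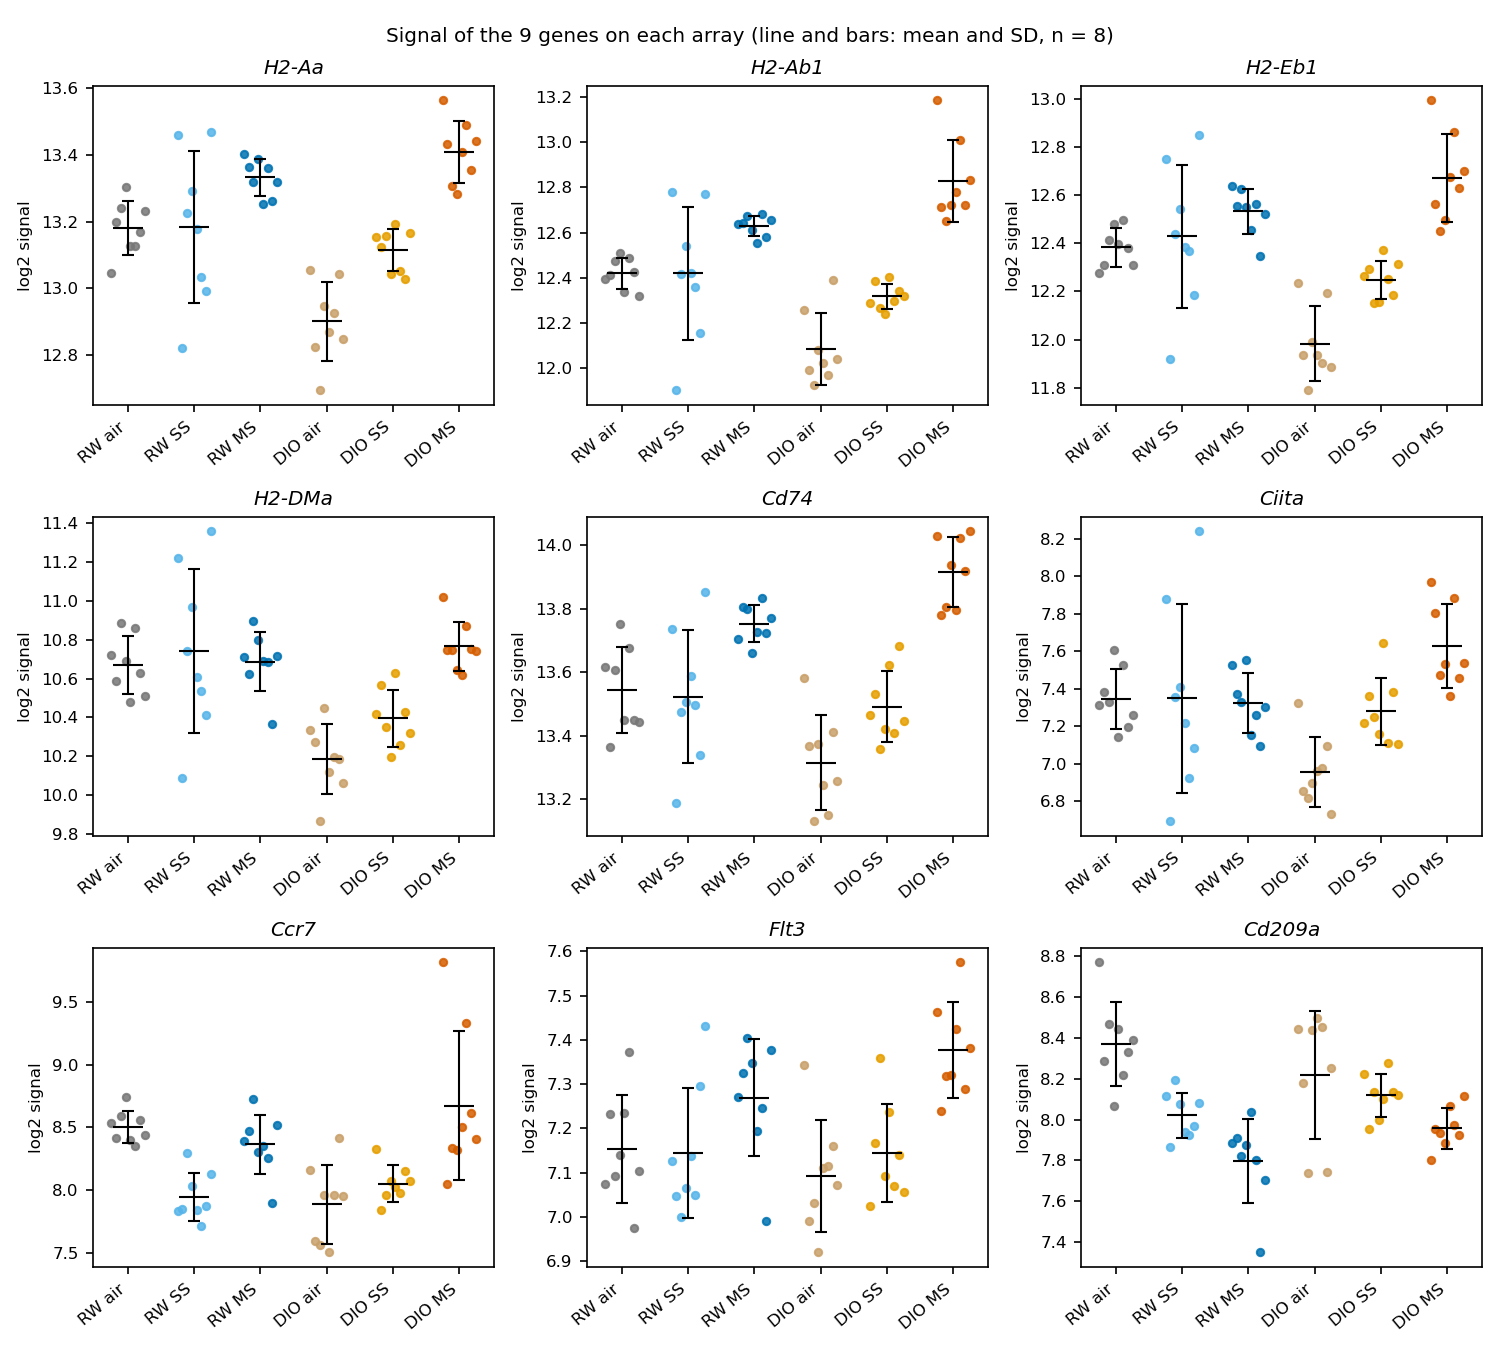
Log2 signal of each of the 9 genes on every array (y axis, own scale in each panel), by group (x axis); points are arrays, lines and bars are the mean and SD of 8 arrays. By its mean, the DIO air group is lowest and the DIO MS group highest in the 6 class II genes, and Cd209a is highest in RW air.

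In clean air, class II RNA was lower in obese than in regular weight lungs. H2-Aa, H2-Ab1, H2-Eb1, H2-DMa and Cd74 fell, as did Ccr7, and none of the 9 genes rose. These 6 of 9 genes compare with 8.28% of all genes called in this comparison and 5.99% called lower. The median difference was -0.33 over the 9 genes and -0.03 over all genes. The log2 signal of H2-Eb1 ran from 12.28 to 12.50 with a median of 12.39 in RW air, and from 11.79 to 12.24 with a median of 11.94 in DIO air. No array of one group reached the other, and the difference was -0.40 (SE 0.083, adjusted p = 0.00127). H2-DMa ran from 10.48 to 10.88 (median 10.66) in RW air and from 9.87 to 10.45 (median 10.19) in DIO air. These groups did not overlap either, with a difference of -0.48 (SE 0.108, adjusted p = 0.00301). Of all genes, 0.831% were lower in obese mice without overlap.

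The chains of I-A moved less. H2-Aa ran from 13.05 to 13.30 (median 13.18) in RW air and from 12.70 to 13.05 (median 12.90) in DIO air, a difference of -0.28 (SE 0.062, adjusted p = 0.00259). H2-Ab1 ran from 12.32 to 12.51 (median 12.42) and from 11.93 to 12.39 (median 12.03), a difference of -0.33 (SE 0.080, adjusted p = 0.00544). In both genes, 7 of 8 obese lungs lay below every regular weight lung, and only the highest obese array, DIO-SC-1 for H2-Aa and DIO-SC-7 for H2-Ab1, reached into the range of the others. Cd74 ran from 13.37 to 13.75 (median 13.53) in RW air and from 13.13 to 13.58 (median 13.31) in DIO air. The ranges overlapped in 4 of 8 obese lungs, and the difference was -0.23 (SE 0.069, adjusted p = 0.0274). Without the 5 arrays that stood apart, Cd74 was no longer called (difference -0.22, adjusted p = 0.0572), while H2-Aa, H2-Ab1, H2-Eb1, H2-DMa and Ccr7 were.

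Ciita, the switch of the class II genes, was at the edge of the test. It ran from 7.14 to 7.61 (median 7.32) in RW air and from 6.73 to 7.32 (median 6.93) in DIO air. The difference was -0.39 (SE 0.129, adjusted p = 0.0505), and 7 of 8 obese lungs lay below all regular weight lungs. Its second probe set differed by -0.48 (adjusted p = 0.0141 over all probe sets). Ccr7 ran from 8.35 to 8.74 (median 8.49) in RW air and from 7.51 to 8.41 (median 7.96) in DIO air. DIO-SC-7, the lung with thymocyte genes, was the only obese lung that reached the regular weight range. The difference was -0.62 (SE 0.151, adjusted p = 0.00649). Flt3 and Cd209a were not called, with differences of -0.06 (SE 0.063) and -0.15 (SE 0.094). Cd209a spread widely in DIO air, from 7.74 to 8.50, with DIO-SC-3 and DIO-SC-7 lowest, and its difference became 0.01 without the arrays that stood apart.

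B cells and alveolar type 2 cells also carry class II molecules, and their marker genes moved in the same comparison. Of 10 measured B cell genes, 9 were lower in obese mice in air, against 5.99% of all genes, with a median difference of -0.81. Their mean log2 signal lay between 8.42 and 8.98 in RW air and between 7.53 and 8.17 in DIO air, with no overlap. Of 9 alveolar type 2 cell genes, 5 were lower, and 3 without the 5 arrays that stood apart (9.55% of all genes called). Their mean lay between 13.00 and 13.15 in RW air and between 12.30 and 13.05 in DIO air. The part of either cell type in the lower class II signal was not tested. In whole lung, fewer cells of a type and less RNA per cell cannot be told apart.

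**Figure D2:**
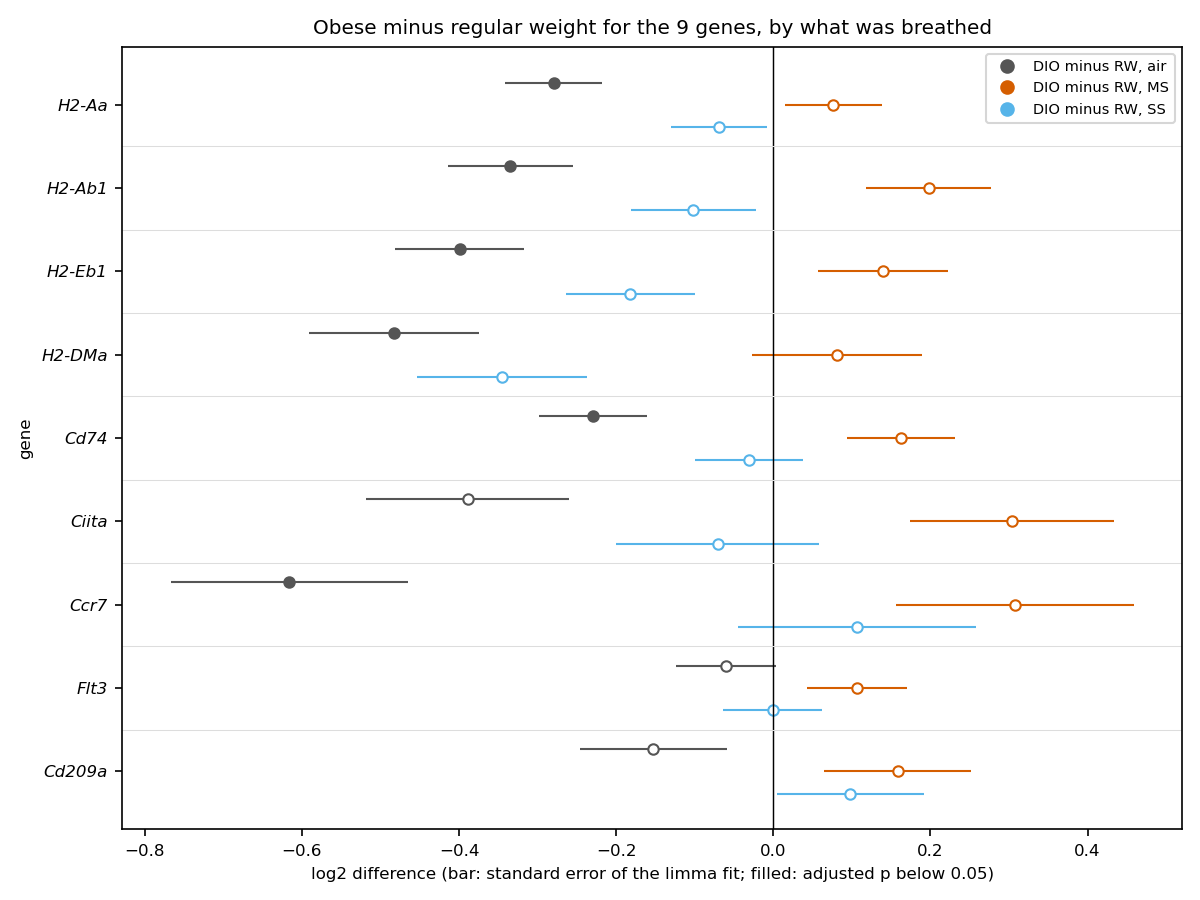
Obese minus regular weight difference of each gene (x axis, log2; bars are the SE of the fit) in air, mainstream smoke and sidestream smoke; filled points had an adjusted p below 0.05. The 6 filled points are all in air and all below 0, and no point in either smoke is filled.

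Under smoke, the gap between obese and regular weight lungs was not called for any of the 9 genes. In mainstream smoke the differences of the 6 class II genes lay between 0.08 (H2-Aa) and 0.30 (Ciita), now above 0, and Ccr7 had 0.31 (SE 0.151). With limma, 0 of 9 genes were called in mainstream smoke, where 1.21% of all genes were, and 4 of 9 had an unadjusted p below 0.05. In sidestream smoke 0 of 9 were called, against 0.976% of all genes, and 2 had an unadjusted p below 0.05. There the class II differences lay between -0.35 (H2-DMa) and -0.03 (Cd74). A miss of the threshold does not show that the groups were alike, since the SE of these differences ran from 0.062 to 0.151.

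Mainstream smoke raised all 6 class II genes in obese lungs. H2-Aa, H2-Ab1, H2-Eb1, H2-DMa, Cd74, Ciita, Ccr7 and Flt3 rose and Cd209a fell, so that 9 of 9 genes were called, in a comparison that called 21.4% of all genes. Of all genes, 11.7% were called higher and 9.76% lower. The median difference was 0.60 over the 9 genes and -0.02 over all genes. H2-Ab1 had the largest class II difference. It ran from 11.93 to 12.39 (median 12.03) in DIO air and from 12.65 to 13.18 (median 12.75) in DIO mainstream smoke, a difference of 0.74 (SE 0.080, 1.67-fold, adjusted p = 5.12e-10). H2-Eb1 ran from 12.45 to 12.99 (median 12.65) in mainstream smoke, 0.69 above air (SE 0.083, 1.61-fold, adjusted p = 8.74e-09). H2-Aa ran from 13.28 to 13.56 (median 13.42), 0.51 above air (SE 0.062, 1.42-fold, adjusted p = 1e-08). In each of these genes the lowest smoke-exposed lung lay above the highest lung in air.

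The helpers of class II loading and the coactivator followed. Cd74 ran from 13.78 to 14.04 (median 13.93) in DIO mainstream smoke, 0.60 above air (SE 0.069, adjusted p = 2.42e-09). H2-DMa ran from 10.62 to 11.02 (median 10.75), 0.58 above air (SE 0.108, adjusted p = 6.19e-05). Ciita ran from 7.36 to 7.97 (median 7.53), 0.67 above air (SE 0.129, adjusted p = 0.000102). With the 3 chain genes, this made 6 of 9 genes whose smoke and air groups did not overlap, against 3.03% of all genes higher without overlap. Without the 5 arrays that stood apart, the 6 class II genes kept their calls, with differences from 0.46 (H2-Aa) to 0.68 (H2-Ab1).

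With all 8 lungs kept, Ccr7 rose most and most unevenly. In DIO mainstream smoke it ran from 8.05 to 9.81 with a median of 8.46, and DIO-MS-1 (9.81) and DIO-MS-6 (9.34) stood above the other 6 lungs, which reached 8.61. The difference from air was 0.78 (SE 0.151, adjusted p = 0.000104), and 4 of 8 lungs lay above every lung in air. Without those 2 lungs the difference was 0.48 (adjusted p = 0.0017), a drop of more than 1.5 times that kept the call. Ccr7 was then no longer the gene that rose most, since H2-Ab1 had at least 0.65 in every alternative. The same 2 lungs were highest for H2-Ab1, at 13.18 and 13.01 against at most 12.83 on the other 6. They also held the highest signals of Ifng, the gene of interferon gamma (6.33 and 5.97, against at most 5.59 on any other array), and of Cxcl13, a B cell chemokine of lymphoid tissue (11.73 and 11.80, against at most 10.14 elsewhere). Flt3 ran from 6.92 to 7.34 (median 7.09) in DIO air and from 7.24 to 7.57 (median 7.35) in mainstream smoke. The ranges met, 4 of 8 smoke-exposed lungs lay above all lungs in air, and the difference was 0.28 (SE 0.063, adjusted p = 0.000735).

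Cd209a went the other way. It ran from 7.74 to 8.50 (median 8.35) in DIO air and from 7.80 to 8.12 (median 7.95) in DIO mainstream smoke, a difference of -0.26 (SE 0.094, adjusted p = 0.0387). The smoke group lay wholly inside the range of the air group. The call was lost without DIO-MS-1 and DIO-MS-6 (adjusted p = 0.121) and when only both groups compared were fitted (adjusted p = 0.165). Without all 5 arrays that stood apart, which removes the low DIO-SC-3 and DIO-SC-7, the difference was -0.40 (adjusted p = 0.000663).

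**Figure D3:**
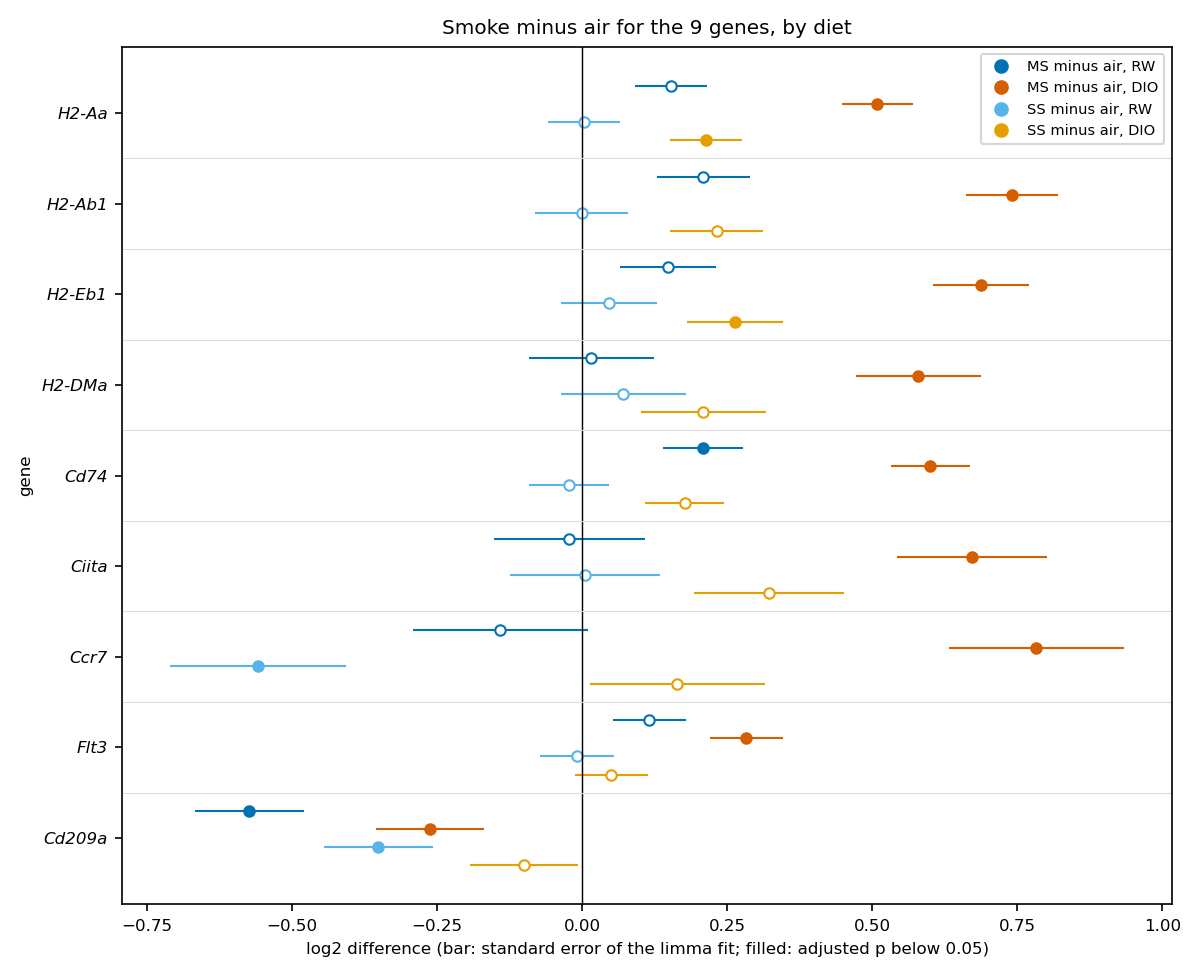
Smoke minus air difference of each gene (x axis, log2; bars are the SE of the fit) for mainstream (MS) and sidestream (SS) smoke in RW and DIO mice; filled points had an adjusted p below 0.05. The DIO MS points of the class II genes lie between 0.51 and 0.74, and the RW MS points between -0.02 and 0.21.

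In regular weight lungs mainstream smoke gave smaller class II differences. Cd74 rose and Cd209a fell, so 2 of 9 genes were called, in a comparison in which 14.7% of all genes were called. The median difference was 0.12 over the 9 genes and -0.03 over all genes. Cd74 ran from 13.37 to 13.75 (median 13.53) in RW air and from 13.66 to 13.83 (median 13.75) in RW mainstream smoke. In 4 of 8 smoke-exposed lungs it lay above all lungs in air, and the difference was 0.21 (SE 0.069, adjusted p = 0.0336). H2-Ab1 ran from 12.32 to 12.51 in air and from 12.55 to 12.68 (median 12.64) in smoke. These groups did not overlap, as was so for 2.78% of all genes in this direction, yet the difference of 0.21 (SE 0.080) had an adjusted p of 0.069.

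The SE of that test comes from all 6 groups. The SD of H2-Ab1 was 0.29 in RW sidestream smoke and 0.07 and 0.04 in RW air and RW mainstream smoke. Fitted on the groups compared alone, H2-Ab1 was called (SE 0.041, adjusted p = 0.00162), as were H2-Aa (difference 0.15, adjusted p = 0.0218) and H2-Eb1 (difference 0.15, adjusted p = 0.0475). That made 5 of 9 genes in place of 2. H2-Aa and H2-Ab1 were also called without the 5 arrays that stood apart (adjusted p = 0.0484 and 0.025), which made 4 of 9 genes against 24.3% of all genes. The other probe set of H2-Aa and both other probe sets of H2-Ab1 were called in this comparison over all probe sets, with adjusted p of 0.0441, 0.032 and 0.0167. H2-DMa (0.02, SE 0.108), Ciita (-0.02, SE 0.129), Ccr7 (-0.14, SE 0.151) and Flt3 (0.12, SE 0.063) were not called.

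Cd209a had its largest difference here. It ran from 8.07 to 8.77 (median 8.36) in RW air and from 7.35 to 8.04 (median 7.85) in RW mainstream smoke. No lung of one group reached the other, as was so for 2% of all genes in this direction. The difference was -0.57 (SE 0.094, 1.49-fold lower, adjusted p = 1.52e-05). RW-MS-7 was lowest at 7.35, with 7.70 the next.

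Sidestream smoke moved few of the 9 genes. In regular weight lungs Ccr7 and Cd209a fell, 2 of 9 genes against 2.17% of all genes called and 1.48% called lower, and the median difference of the 9 was -0.00. Ccr7 ran from 8.35 to 8.74 (median 8.49) in RW air and from 7.72 to 8.30 (median 7.86) in RW sidestream smoke, with no overlap, as for 0.581% of all genes in this direction. The difference was -0.56 (SE 0.151, adjusted p = 0.0355). Cd209a ran from 7.87 to 8.19 (median 8.02) in RW sidestream smoke, and 4 of 8 lungs lay below every lung in air. The difference was -0.35 (SE 0.094, adjusted p = 0.0328). Leaving out any 1 of RW-SC-1, RW-SC-3, RW-SC-8, RW-SS-5, RW-SS-6 and RW-SS-7 removed both calls. The share of all genes called in those fits is not given. The class II differences lay between -0.02 (Cd74) and 0.07 (H2-DMa), none called. In the same comparison 8 of 10 B cell genes were lower, with a median of -0.55 and a mean log2 signal of 8.00 to 8.39 against 8.42 to 8.98 in air. The part of B cells in the lower Ccr7 was not tested.

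In obese lungs, sidestream smoke raised H2-Aa and H2-Eb1, 2 of 9 genes against 6.85% of all genes called and 4.26% called higher. The median difference was 0.21 over the 9 genes and 0.02 over all genes. H2-Aa ran from 13.03 to 13.19 (median 13.14), 0.21 above DIO air (SE 0.062, adjusted p = 0.0245), and H2-Eb1 from 12.15 to 12.37 (median 12.26), 0.26 above it (SE 0.083, adjusted p = 0.0418). Both ranges overlapped those of DIO air. H2-Ab1 differed by 0.23 (SE 0.080, adjusted p = 0.0657), and H2-DMa, Cd74 and Ciita by 0.21, 0.18 and 0.32, none called. Ccr7, Flt3 and Cd209a differed by 0.16, 0.05 and -0.10, none called. The count of called genes fell to 0 without DIO-SC-3 and rose to 4 without DIO-SC-1, fits whose share of all genes called is not given. The count was also 4 without the 5 arrays that stood apart, where 9.23% of all genes were called. Of those 4 genes 3 were higher, and Cd209a was lower (-0.26, adjusted p = 0.0356).

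Whether the response to mainstream smoke differed between the diets was tested as the difference of both responses. H2-Aa, H2-Ab1, H2-Eb1, Cd74, Ciita and Ccr7 responded more in obese mice, 6 of 9 genes in a test that called 0.888% of all genes. A larger response in obese mice was called for 0.589% of all genes. The median difference of responses was 0.53 over the 9 genes and 0.02 over all genes. For H2-Ab1 the responses were 0.21 in RW and 0.74 in DIO mice and differed by 0.53 (SE 0.113, adjusted p = 0.0134). For H2-Eb1 they were 0.15 and 0.69 and differed by 0.54 (SE 0.117, adjusted p = 0.0147). For Ccr7 they were -0.14 and 0.78 and differed by 0.92 (SE 0.213, adjusted p = 0.0263). H2-Aa differed by 0.36 (adjusted p = 0.0335), Cd74 by 0.39 (adjusted p = 0.0365) and Ciita by 0.69 (adjusted p = 0.0497). H2-DMa had a difference of 0.56 (adjusted p = 0.0585), Cd209a 0.31 (adjusted p = 0.264) and Flt3 0.17 (adjusted p = 0.404).

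Each of these differences adds the gap between the diets in air, taken with its sign turned, to the gap in mainstream smoke. For H2-Ab1 the gaps were -0.33 in air and 0.20 in smoke, and for H2-DMa -0.48 and 0.08, so the larger share of the difference of responses came from the lower start in air. Some of the calls changed with the arrays kept. Without the 5 that stood apart, where 1.06% of all genes were called, 3 genes were called: H2-Ab1 (0.47, adjusted p = 0.0175), H2-Eb1 (0.46, adjusted p = 0.0399) and Ccr7 (0.66, adjusted p = 0.00916). H2-Aa, Cd74 and Ciita then had adjusted p of 0.0817, 0.107 and 0.128, with differences of 0.31, 0.34 and 0.59. The count was also 3 without any 1 of RW-SC-3, RW-SC-4, DIO-SC-3, DIO-MS-1 and DIO-MS-6, fits whose share of all genes called is not given. The responses to sidestream smoke were not called by limma as different between the diets for any of the 9 genes, against 0.654% of all genes, though 4 of 9 had an unadjusted p below 0.05. Ccr7 came nearest, with -0.56 in RW and 0.16 in DIO mice and a difference of 0.72 (adjusted p = 0.106). Without the 5 arrays it was called (0.72, adjusted p = 0.00192).

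Both kinds of smoke were also set against each other. In obese lungs H2-Aa, H2-Ab1, H2-Eb1, H2-DMa, Cd74, Ccr7 and Flt3 were higher in mainstream than in sidestream smoke, 7 of 9 genes against 16.8% of all genes called and 8.83% called higher. The differences ran from 0.23 (Flt3) to 0.62 (Ccr7), with 0.51 for H2-Ab1 (SE 0.080, adjusted p = 4.17e-06). H2-Aa, H2-Ab1, H2-Eb1 and Cd74 did so without overlap, against 3.82% of all genes. Ciita differed by 0.35 (adjusted p = 0.056). H2-DMa and Flt3 lost their calls without the 5 arrays that stood apart (adjusted p = 0.0697 and 0.0673), which left 5 of 9 genes against 12% of all genes. Without DIO-MS-1 and DIO-MS-6, 4 of 9 genes were called, and the share of all genes called fell as well, to 6.92%. In regular weight lungs Cd74 was the 1 gene called, 0.23 higher (SE 0.069, adjusted p = 0.0238), against 9.77% of all genes called and 6.05% called higher. Ccr7 had 0.42 there (adjusted p = 0.0697).

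Put in order of their group means, the class II genes began in every case with DIO air, then DIO sidestream smoke, and ended with DIO mainstream smoke. The step from DIO air to DIO sidestream smoke was larger than the larger SD of both groups in all 6 genes. In H2-Ab1 and Cd74 the order ended with RW air, RW mainstream smoke and DIO mainstream smoke, and both of these steps were also larger than the SD. In H2-DMa and Ciita the 3 regular weight groups were neighbours, with steps of at most 0.06 and 0.02 that were within their spread. Ccr7 had a single step beyond the spread, between DIO sidestream smoke (8.05) and RW mainstream smoke (8.36). Flt3 and Cd209a had no such step between neighbours, Cd209a rising in small steps from RW mainstream smoke (7.80) to RW air (8.37).

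Regular weight mice in sidestream smoke had class II means near those of RW air and the widest spread of the 6 groups. The SD of Ciita was 0.50 there and between 0.16 and 0.23 in the other groups, and that of H2-DMa 0.42 against at most 0.18. RW-SS-2 was lowest and RW-SS-8 and RW-SS-1 were highest. Ciita was 6.69 on RW-SS-2, 7.88 on RW-SS-1 and 8.24 on RW-SS-8, and the last exceeded every lung in mainstream smoke. H2-DMa was 10.09 on RW-SS-2, 11.22 on RW-SS-1 and 11.36 on RW-SS-8. Igtp, an interferon-induced GTPase, went with them, at 9.23, 11.30 and 12.55 on these lungs. Ifng was 3.96, 5.52 and 4.33 and Cxcl9 was 5.07, 9.72 and 6.28 on them, so both were lower on RW-SS-8 than on RW-SS-1. The Ccr7 signal was 7.85, 7.83 and 8.13 on them, within the range of the group.

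**Figure D4:**
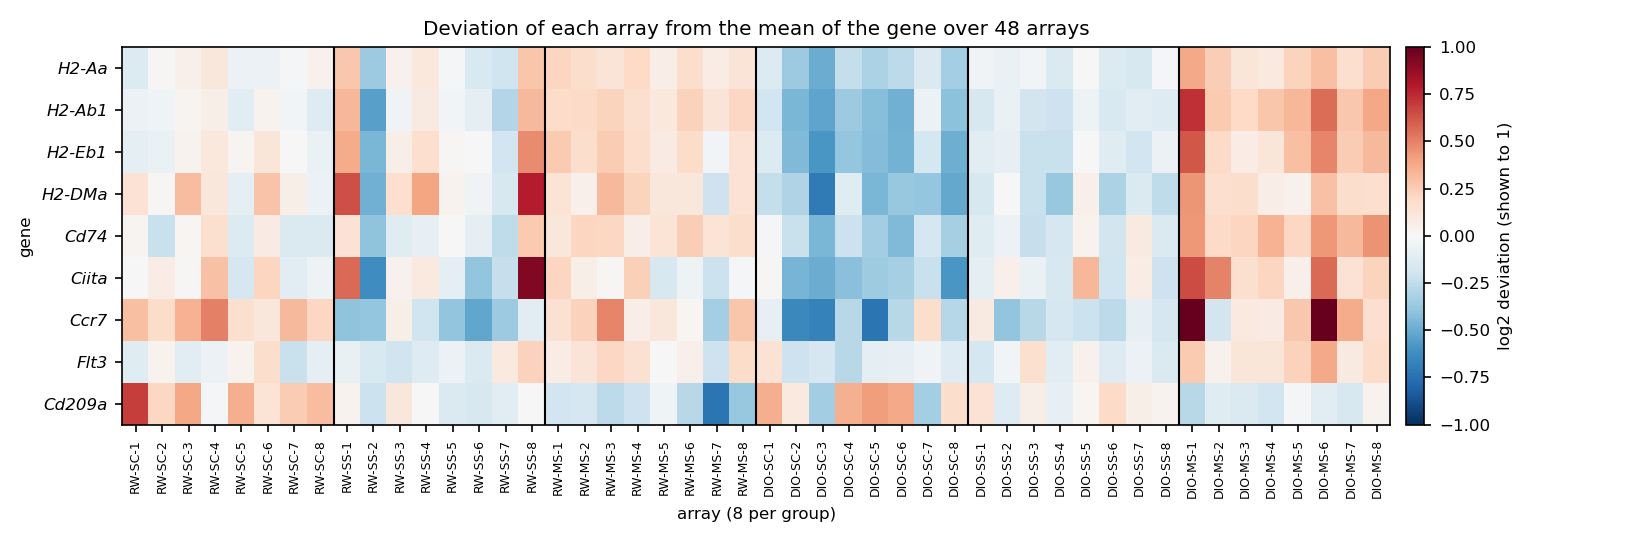
Deviation of each gene (rows) on each of 48 arrays (columns, 8 per group) from the mean of that gene over all arrays, in log2 units with colours ending at 1. RW-SS-1 and RW-SS-8 are high and RW-SS-2 is low in the class II rows, all 3 are below the mean in the Ccr7 row, and DIO-MS-1 and DIO-MS-6 are high in both.

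Across the 48 arrays the chain genes moved almost as one. Pearson's r was 0.95 for H2-Aa with H2-Ab1, 0.96 for H2-Aa with H2-Eb1 and 0.96 for H2-Ab1 with H2-Eb1. Ccr7 had r of 0.51 to 0.70 with the class II genes, and Cd209a had r of -0.38 to -0.07 with them. Arrays share their group, which adds to r, so residuals from the group means were also set against each other over the 43 arrays that did not stand apart. There H2-Ab1 and H2-Eb1 had r = 0.94, H2-Ab1 and Ciita 0.83, and H2-Ab1 and Ccr7 0.25. These values describe the arrays and carry no test.

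Outside the 9 genes, those with the most similar pattern differed by gene. With the 9 left out, in residuals over 43 arrays Ciita was closest to Igtp (r = 0.87) and Irgm2 (0.86), H2-Ab1 to Ifi47 (0.84) and Psmb8 (0.83), and H2-DMa to Psmb9 (0.85). Cd74 was closest to Psmb9 (0.81) and H2-Aa to H2-M3 (0.83). Ccr7 was closest to Cd79a, a chain of the B cell receptor complex (0.81), and Cd209a reached only 0.66, with Vps45. Over all 48 arrays, among the same other genes, Cd74 was closest to Ifnar2 (0.83) and Flt3 to Tnfrsf9 (0.76).

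Other genes of class II loading and control moved in part. Of 19 listed genes, 14 were measured. Of all genes, 5.99% were called lower in obese mice in air and 11.7% higher in obese mice in mainstream smoke. In regular weight mice in mainstream smoke 14.7% were called. In obese mice in air 5 of these 14 were lower: H2-Oa (-0.73), H2-DMb2 (-0.72), the lysosomal protease Ctss, which trims the invariant chain (-0.42), and Rfx5 (-0.36) and Rfxank (-0.21), subunits of the factor that binds the X box. In obese mice in mainstream smoke 5 were higher: Ctss (0.89), the protease Lgmn (0.88, or 0.56 without the 5 arrays that stood apart), the lysosomal thiol reductase Ifi30 (0.78), H2-DMb2 (0.42) and Rfx5 (0.40). Nfyc, a subunit of the factor that binds the Y box, was lower (-0.16). In regular weight mice in mainstream smoke Ctss (0.55), Lgmn (0.48) and Ifi30 (0.32) rose and H2-Oa fell (-0.43). H2-Oa encodes a chain of the DO complex, which modulates DM. The median of the 14 genes was 0.03 in obese and -0.05 in regular weight mice, near that of all genes. H2-Ea was not called in any comparison and stayed between 7.17 and 8.27 on all arrays. C57BL/6 mice are known to make no I-E alpha chain.

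H2-DMb2 and Ifi30 also responded more in obese mice (differences of 0.66 and 0.46, adjusted p = 0.04 and 0.028). Neither was called without the 5 arrays that stood apart (0.62 and 0.27, adjusted p = 0.0596 and 0.14). In sidestream smoke, H2-DMb2 fell in regular weight mice (-0.42) and Rfx5 rose in obese mice (0.28), the 1 listed gene of 14 called in each. Of all genes 2.17% and 6.85% were called there, so the count in obese mice was near the share of all genes.

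Of 30 listed dendritic cell genes 25 were measured. In mainstream smoke 13 of them rose, 0 fell and 12 did not pass in regular weight mice, with a median of 0.32, where 6.61% of all genes were called higher. In obese mice 20 rose, 0 fell and 5 did not pass, with a median of 0.67, where the share of all genes called higher was 11.7%. Among those that did not pass, Zbtb46 had means of 8.01 in DIO air and 7.77 in DIO mainstream smoke. Cd24a had 12.87 and 12.77. In regular weight mice their means were 7.76 and 7.91, and 12.81 and 12.91. The largest differences were in the chemokine genes Ccl17 (1.95 in RW and 2.35 in DIO mice) and Ccl22 (1.68 and 2.15), which draw Ccr4-bearing T cells, and in Fscn1, the actin bundler of mature dendritic cells (1.42 and 1.51). Itgax, the CD11c integrin chain, had 0.98 and 1.36, and Cd86, a costimulatory ligand, 0.66 and 1.37. Ccr7, which is used as a mark of the same maturing cells, had -0.14 (not called) in RW and 0.78 in DIO mice. Both comparisons have their own air controls.

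The response differed between the diets for 3 of the 25 genes, against 0.888% of all genes: Ccr2 (0.72), Cd86 (0.71) and Spi1 (0.69). Ccr2 had 0.44 (adjusted p = 0.196) and Spi1 0.44 (adjusted p = 0.0303) without the 5 arrays that stood apart. In obese mice in air 5 of the 25 were lower, against 5.99% of all genes, and none was higher. These were Ccr2 (-0.59), Spi1 (-0.53), Irf4 (-0.40), Itgax (-0.33) and Sirpa (-0.23, not called without the 5 arrays). Sidestream smoke lowered Mgl2 (-0.59) and Ccr6 (-0.58) in regular weight mice, where 2.17% of all genes were called. In obese mice, where 6.85% were, it lowered Mgl2 (-0.44) and raised Ccr2 (0.50) and Id2 (0.44, not called without the 5 arrays). Cd209a therefore fell in mainstream smoke while Itgax and Cd86 rose, in both diets. Its 6 listed relatives, Cd209b to Cd209g, were not called by limma in any of the 11 comparisons. Cd209g was called in regular weight mice in mainstream smoke when the 5 arrays were left out (0.33, adjusted p = 0.036).

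**Figure D5:**
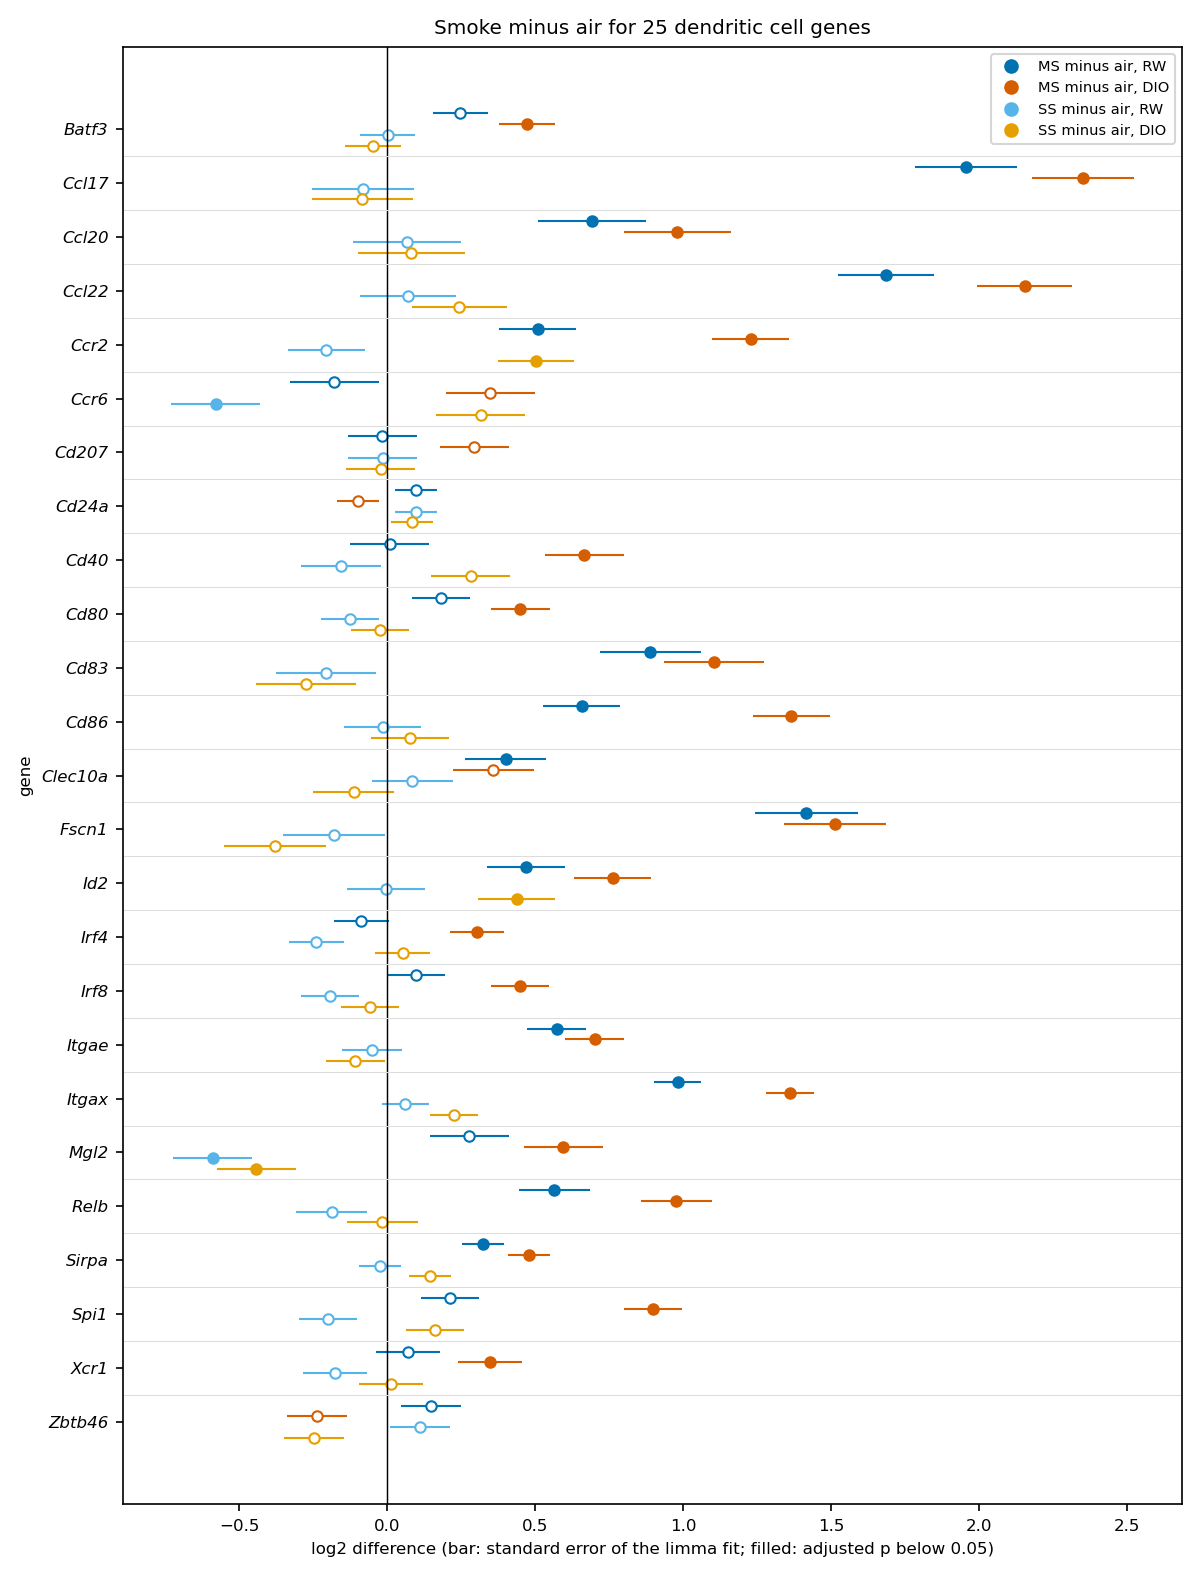
Smoke minus air difference (x axis, log2; bars are the SE of the fit) of the 25 measured dendritic cell genes, for mainstream (MS) and sidestream (SS) smoke in both diets; filled points had an adjusted p below 0.05. Mainstream points lie mostly above 0, filled for 13 genes in RW and 20 in DIO mice.

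Marker genes of other class II bearing cells moved in part. Of 9 measured genes of monocytes and interstitial macrophages, 6 rose in mainstream smoke in regular weight mice and 8 in obese mice, the latter with a median of 1.31. The counts were 7 and 5 without the 5 arrays that stood apart (24.3% and 18% of all genes called), and the median in obese mice was 0.53. Their mean log2 signal lay between 9.60 and 9.84 in RW air and 10.14 and 10.90 in RW mainstream smoke, and between 9.39 and 9.77 in DIO air and 10.27 and 11.27 in DIO mainstream smoke. Of 9 alveolar type 2 cell genes, 5 rose in obese mice in mainstream smoke and 1 rose and 2 fell in regular weight mice. Of 10 B cell genes 2 rose in obese mice and 6 fell in regular weight mice. In the main fit, mainstream smoke had 11.7% of all genes called higher in obese mice. In regular weight mice 14.7% were called, and 6.61% were called higher. Counts of 1 or 2 in lists this short lie close to such shares. The part of any of these cells in the class II differences was not tested.

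Of 11 measured genes of the interferon gamma axis (12 listed), 5 rose in obese mice in mainstream smoke, led by Cxcl10 (3.30) and Cxcl9 (2.15). Of all genes 11.7% were called higher there. With the 5 arrays that stood apart left out 3 were called, Cxcl10 had 2.20 (adjusted p = 5.1e-05) and Cxcl9 had 1.14 and was not called (adjusted p = 0.108). In regular weight mice, where 14.7% of all genes were called, Cxcl10 (1.97) and Jak2 (0.20) rose and Ifngr1 (-0.16) fell. Ifng itself was not called in either diet, with differences of -0.32 (SE 0.261) in RW and 0.32 (SE 0.261) in DIO mice. The difference above 0 in DIO mice rested on DIO-MS-1 (6.33) and DIO-MS-6 (5.97). The other lungs of that group lay between 3.73 and 4.24, against a mean of 4.21 in DIO air.

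Probe sets of the same gene moved together. Pearson's r over 48 arrays was 0.92 between both sets of H2-Aa, 0.97 to 0.98 among the 3 of H2-Ab1 and 0.81 between both of Ciita. Fitted apart, with adjustment over 22626 probe sets, 12 of 13 probe sets were higher and 1 was lower in obese mice in mainstream smoke, against 9.91% higher and 8.24% lower of all probe sets. In obese mice in air 10 of 13 were lower, against 4.3% of all probe sets. Of 13 probe sets, 9 had a larger response to mainstream smoke in obese mice, against 0.438%. The sets with the suffix _s_at or _x_at can match RNA of related genes. Both sets of H2-Aa are of this kind, as are the set that stood for H2-Ab1 and another of its 3. The values of these genes could therefore include signal from a near copy.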

How the data were processed

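Lung RNA of 48 mice was measured on 1 Affymetrix array each. The authors deposited log2 values made with RMA (background subtraction, quantile normalization between arrays, 1 summary per probe set), per the submitters' processing notes. The sources used here do not state the version, the software or which arrays were normalized jointly. Values ran from 2.5 to 15.3, with array medians from 7.82 to 7.94. Raw scans were not used.

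Of 22690 probe sets in the deposited values, 64 are hybridization controls. The 20380 probe sets used carry 1 symbol in the platform annotation, and Entrez numbers of 20351 were found among gene names of assembly GRCm38.p6, which changed 0 symbols. The probe set with the highest mean over 48 arrays stood for each of 12393 genes. Group means were estimated from the 48 arrays together with lmFit and eBayes of limma 3.58.1 under R 4.3.3, with version 1.17.8 of the data.table package. The 11 comparisons were adjusted one by one with Benjamini-Hochberg over all genes and called below 0.05. The same fit was run over 22626 probe sets. On simulated data with shifts of 0.5 and 1 in known genes the test was checked for recovery. Titles gave the groups, and p-values set each difference against the spread between animals, estimated over all the groups together. The number of arrays limits the precision.

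The 9 genes, the gene lists and the marker lists were chosen with earlier results of these data known. Every one of the 9 genes is named, and from each list up to 4 called genes of largest difference per comparison, plus genes whose role a sentence needs. The most similar genes are the 5 with the highest Pearson r outside the 9, by 48 arrays and by residuals of 43. The marker lists covered B cells, T cells, alveolar macrophages, monocytes and interstitial macrophages, alveolar type 2 cells, thymocytes, lymphoid stroma, fat, muscle and squamous epithelium, and lung. Of 8 T cell genes, 0 were called by limma in any comparison, but without 5 arrays 6 were lower in regular weight mice in mainstream smoke and 3 in obese mice in air. Without those arrays 24.3% and 9.55% of all genes were called in these comparisons. Of 7 alveolar macrophage genes, 1 rose and 3 fell in obese mice in mainstream smoke, and of 5 lymphoid stroma genes, 1 rose. There 11.7% of all genes were called higher and 9.76% lower. The alternatives are other choices of probe set, normalization, eBayes setting, filter, fold minimum and arrays. Promoter windows came from RefSeq tables and were searched with Python.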

Additional observations from a re-analysis of the deposited data

Results flagged for a closer look

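The response to mainstream smoke differed between obese and regular weight mice, by the test of the difference itself, for 6 of the 9 genes. The obese response exceeded the regular weight response by 0.36 on the log2 scale for H2-Aa, 0.53 for H2-Ab1, 0.54 for H2-Eb1, 0.39 for Cd74, 0.69 for Ciita and 0.92 for Ccr7. In each of these genes the mean of the obese lungs was below that of the regular weight lungs in air and above it in smoke. The gap in smoke was not called for any of them, nor the gap in air for Ciita. Without the 5 arrays that stood apart H2-Ab1, H2-Eb1 and Ccr7 remained called. No group of 8 arrays held a lung far from the others by Dixon's test, in 54 groups of 1 gene each. That test compares only the outermost lung with its nearest. A pair of far lungs, such as DIO-MS-1 and DIO-MS-6 for Ccr7, can therefore pass it.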

How the results depend on the processing

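The number of all genes called also moved with the setting, so a changed count is not by itself a result about the 9 genes. For mainstream smoke it was 1819 in regular weight mice, and 3015 without the 5 arrays that stood apart. In obese mice it was 2658, and 585 with a minimum of 1.5-fold. All 9 genes were called in obese mice in mainstream smoke under most alternatives, the count staying between 8 and 9 except with that minimum (5). That minimum gave 1 gene for obesity in air, 0 for mainstream and 0 for sidestream smoke in regular weight mice, and 0 for sidestream smoke in obese mice. The numbers of all genes called there were 93, 272, 35 and 57. The same minimum gave 2 for the diet difference in the mainstream response (52 of all genes). For mainstream against sidestream smoke it gave 0 in regular weight and 1 in obese mice (258 and 424 of all genes). Without the 5 arrays that stood apart, 1 gene was called for obesity in sidestream smoke (H2-DMa) and 4 for mainstream smoke in regular weight mice. Of all genes 2.99% and 24.3% were called there. That setting gave 4 for sidestream smoke in obese mice (9.23% of all genes). It gave 3 and 1 for the diet differences in the mainstream and sidestream responses (1.06% and 1.25%). For mainstream against sidestream smoke in regular weight mice it gave 4 (17.1%). Each of these counts of 4 was 3 higher and 1 lower. Without DIO-MS-1 and DIO-MS-6 the diet differences gave 3 and 1 (0.863% and 1.02% of all genes). Mainstream against sidestream smoke then gave 2 in regular weight and 4 in obese mice (12.2% and 6.92%). Centring arrays on their medians left 3 for the diet difference in the mainstream response (106 genes called in all). Quantile normalizing again, or leaving out _x_at and _s_at probe sets, left 1 for sidestream smoke in obese mice (1022 and 809 in all). For mainstream smoke in regular weight mice, the mean of all probe sets or the set of largest variance gave 4 (1920 and 1912 in all). A fit of the groups compared gave 5 there (2211 in all). Such a fit gave 1 for the diet difference in the sidestream response (92 in all). It gave 2 for mainstream against sidestream smoke in regular weight mice (1725 in all).

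Leaving out each array in turn gave 5 to 7 genes for obesity in air, 0 in mainstream and 0 to 1 in sidestream smoke (1 without RW-SS-2). Mainstream smoke gave 1 to 3 in regular weight mice (1 without RW-SC-2, RW-SC-5, RW-SC-7, RW-SC-8, RW-MS-2, RW-MS-3 or RW-MS-6) and 8 to 9 in obese mice. Sidestream smoke gave 0 to 2 in regular weight mice (1 without RW-SC-4, RW-SS-1 or RW-SS-2, and 0 without RW-SC-1, RW-SC-3, RW-SC-8, RW-SS-5, RW-SS-6 or RW-SS-7). It gave 0 to 4 in obese mice (1 without DIO-SC-2, DIO-SC-4, DIO-SC-5, DIO-SC-6, DIO-SC-8, DIO-SS-1, DIO-SS-2, DIO-SS-5, DIO-SS-6 or DIO-SS-8). The diet differences gave 3 to 7 and 0 to 1 (1 without DIO-SC-7 or DIO-MS-1). Mainstream against sidestream smoke gave 0 to 3 in regular weight mice (0 without RW-SS-2 or RW-SS-7, 2 without DIO-SC-7, RW-MS-7 or DIO-MS-1, 3 without RW-SS-1 or RW-SS-8) and 7 to 8 in obese mice. The shares of all genes called with single arrays left out are not given here.

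In 15 cases a difference changed sign, each of them uncalled with and without the change. For sidestream smoke in regular weight mice, H2-Ab1 became 0.0076 without the 5 arrays, 0.026 centred, 0.0039 quantile normalized, 0.031 as the mean of probe sets, 0.079 by largest variance and 0.015 without _x_at and _s_at sets. There Flt3 became 0.0043 without the 5 arrays, 0.018 centred and 0.023 quantile normalized, Cd74 0.0052 centred, H2-Aa -0.028 quantile normalized and Ciita -0.085 as the mean of probe sets. Cd209a became 0.0066 for obesity in air without the 5 arrays, Ciita 0.0015 for mainstream smoke in regular weight mice quantile normalized, and Flt3 0.00022 for obesity in sidestream smoke centred. The cause of these moves was not tested.

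With the animal number as a block, 98 of 99 differences kept their call, and the diet difference in the mainstream response gave 5 genes. The numbers do not pair the animals: residuals of same-numbered arrays had a mean r of 0.015, and 6 of 48 arrays were closest to one of their own number. A log2 signal of one probe set is no measure against that of another.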
